A study of Mus musculus with 7 samples.

Results

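Heat shock and DnaJ chaperone genes were read in the livers of mice lacking C3ar1, whose product is the receptor through which cells sense C3a, a split product of complement. Members were chosen by gene symbol alone: names beginning with Hspa, Hspb, Hspd, Hspe, Hsph, Hsp90, Dnaja, Dnajb or Dnajc, without Hspa5 and Dnajb9. The rule found 64 genes on 69 probes, out of 16462 genes with 1 symbol and 23574 probes in all. Of the 64 genes, 59 had 1 probe and 5 had 2 probes, which were averaged. The other 9 genes of these families in the reference table, among them Hspa8, Hsp90ab1 and Hspa1b, were not analysed here. The design held 3 C3ar1 -/- knockout mice, numbered 2 to 4, and 4 wild-type littermates, numbered 1 to 4, all kept on a chow diet. The RNA of each liver was set on a 2-colour array against a common RNA pool, to which 6 wild-type mice gave liver RNA, so that each value is a log ratio of a mouse to the pool. Strain, sex, age and the deleted part of C3ar1 are not given in the sources used here. Nor are the base of the logarithm and the sign of the ratio. Base 10 and mouse over pool were taken here. The basis for the latter is that the titles place the pool first and the mouse second, the labels give Cy3 to channel 1 and Cy5 to channel 2, and a 2-colour ratio is commonly Cy5 over Cy3. The series' design text also states a dye swap, and whether a deposited value merges both dye orientations is not given. Mouse over pool is thus an assumption and is not settled. Were the ratios pool over mouse, as the order of the title alone would read, all signs given here would be opposite. A ratio to a pool of the same tissue gives no level, so levels of different genes are not compared and the tissue could not be checked by its markers. In whole liver RNA, fewer cells of a type and less RNA per cell cannot be told apart.

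Heat shock proteins are chaperones, which bind unfolded or newly made proteins and help them to fold. Hsp70 proteins work in cycles of ATP binding that DnaJ proteins start and exchange factors end, Hsp90 acts on partly folded clients such as kinases and hormone receptors, and small heat shock proteins hold unfolded chains without ATP. Some members are made at all times, while others are switched on by heat shock factor 1 when unfolded proteins build up in the cytosol. The mitochondria and the endoplasmic reticulum, a large organelle in hepatocytes, which secrete much protein, each have chaperones of their own.

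No member differed between the genotypes past the test over all genes. With limma, 0 of the 64 members passed an adjusted p of 0.05, and the smallest adjusted p among them was 0.872. Over all 16462 genes, 1 passed, a share of 0.00607%. At an unadjusted p under 0.05, limma listed 3 of 64 members, or 4.69%, against 4.79% of all genes. The groups did not overlap in 3 members, again 4.69%, against 5.38% of all genes. Of these, 2 were higher in the knockouts (2.77% of all genes were) and 1 was lower (2.61% of all genes). An ordinary test, which takes each gene's spread alone, listed 2 members at an unadjusted p under 0.05 (4.19% of all genes) and called 0 after adjustment. Knockouts read higher in 40 of 64 members (62.5%), against 56.7% of all genes. The median difference between knockout and wild type was 0.0145 on the log10 scale over members and 0.0054 over all genes. These shares were close to the background. For 49 of 64 members (76.6%) the 95% interval of the difference lay within 1.5-fold in either direction, against 86.9% of all genes. Without knockout liver 4, 34 members read higher (53.1%, against 56.7% of all genes), and with array weights 36 did (56.2%, against 53.5%).

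**Figure D1:**
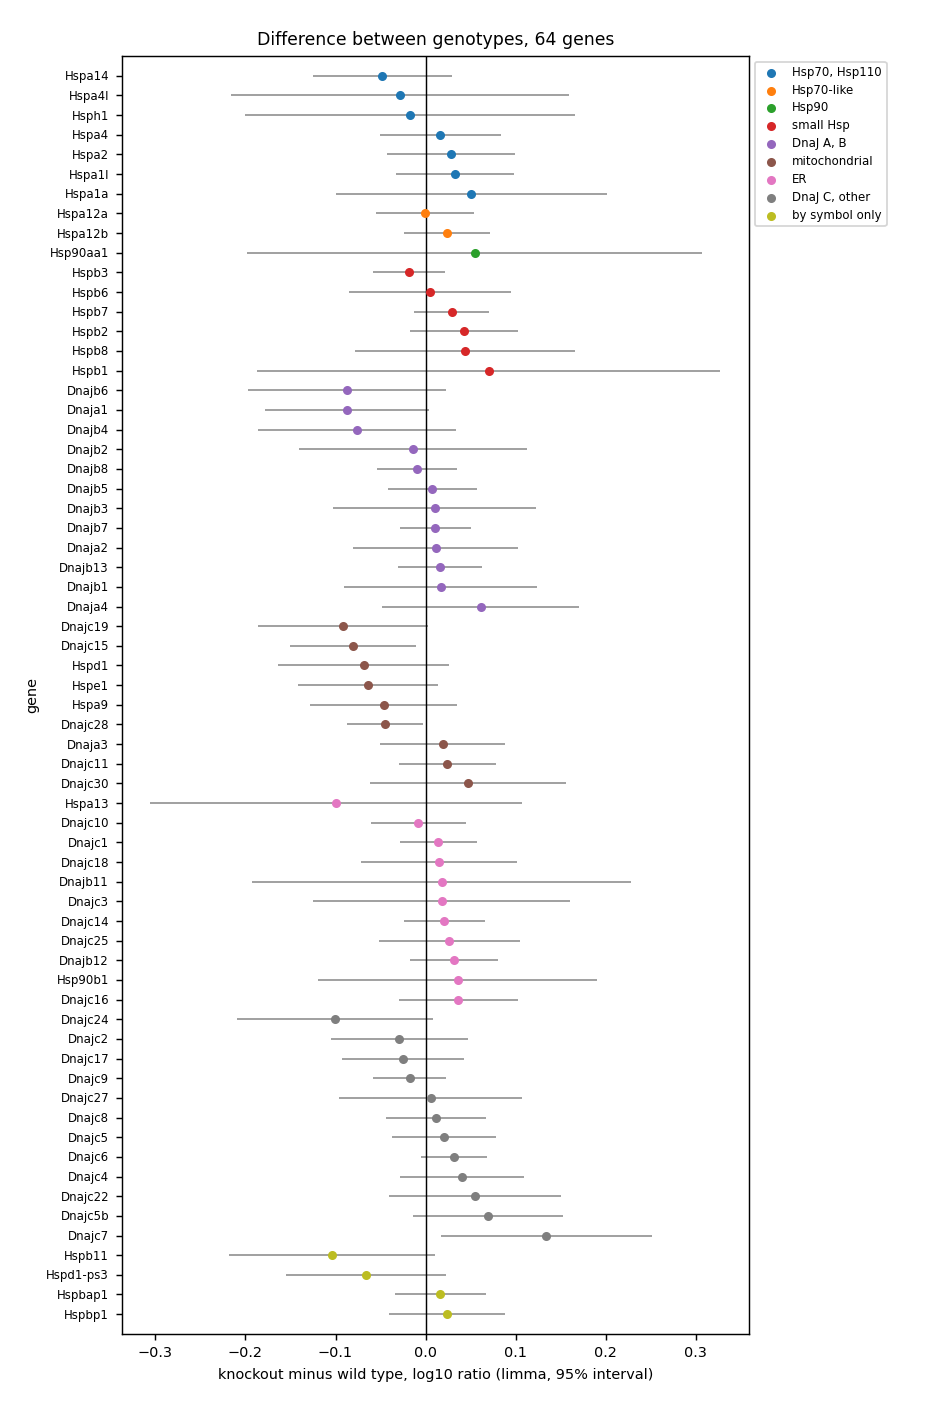
Difference between knockout and wild type for the 64 genes, ordered by role, with the log10 difference on the horizontal axis and limma's 95% interval as a bar. Dnajc7, Dnajc15 and Dnajc28 are the genes whose bars do not reach 0, and none of the 64 passed after adjustment over all genes.

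Across the series, the medians of the 7 arrays lay between -0.0008 and 0.0139. Knockout liver 2 had the widest SD over probes, at 0.0975, against 0.0466 to 0.0676 on the others. It was the lowest array for 19 members and the highest for 14, or 29.7% and 21.9% of members, against 18.6% and 29.5% of all genes. After scaling all arrays to equal spread the counts were 9 and 8, and the shares of all genes after scaling are not given here. The probe of C3ar1 differed by 0.0329 ± 0.0233 (SE; limma, adjusted p = 0.872), and as it may lie outside the deleted part it checks nothing. The 1 gene that passed was A2ml1, a protease inhibitor gene, at a difference of -0.827 (limma, adjusted p = 0.00855). The number of arrays limits the precision of every value.

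Promoters of members were searched for the heat shock element, the sequence that heat shock factor 1 reads. The element is made of units of GAA in alternating orientation. In windows from 250 bases before to 50 bases after each gene's start, from RefSeq on GRCm38.p6, 52 members had a window. The 3-unit form is GAA, then TTC and then GAA, each after any 2 bases. Searched on both strands, it lay in 4 of these 52 members (7.69%) and in 0.558% of measured genes with a window. These were Dnajb6, Hspd1, Hspe1 and Hsph1, the last 3 of them heat-inducible. The heat-inducible Hsp90aa1 and Dnajb1 had a window without a match to any form searched. The 2-unit form GAANNTTC, which the 3-unit form contains, lay in 12 members (23.1%) against 7.64% of measured genes, Hspa1a and Hspb1 among them, and the outward form TTCNNGAA lay in 6 (11.5%) against 8.61%. Matches of the 3-unit form are shown in capitals in the following windows, each 5′ to 3′ on the gene's strand, for the co-chaperone Hsph1 (chr5:149636287-149636586, minus strand), the mitochondrial Hspe1 (chr1:55087898-55088197, plus strand) and the DnaJ gene Dnajb6 (chr5:29735648-29735947, plus strand). In Hspe1 the capitals are overlapping matches, and this window shares 285 bases with that of Hspd1, which starts in the opposite direction. The match in Hsph1 begins 36 bases after the start site. A match describes letters in the window and is not evidence of binding.
Hsph1: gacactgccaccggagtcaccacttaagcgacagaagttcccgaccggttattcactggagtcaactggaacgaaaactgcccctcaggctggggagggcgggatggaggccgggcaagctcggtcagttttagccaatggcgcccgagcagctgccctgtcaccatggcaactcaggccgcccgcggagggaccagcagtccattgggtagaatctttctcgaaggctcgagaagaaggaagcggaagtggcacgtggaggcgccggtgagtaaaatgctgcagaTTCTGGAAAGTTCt
Hspe1: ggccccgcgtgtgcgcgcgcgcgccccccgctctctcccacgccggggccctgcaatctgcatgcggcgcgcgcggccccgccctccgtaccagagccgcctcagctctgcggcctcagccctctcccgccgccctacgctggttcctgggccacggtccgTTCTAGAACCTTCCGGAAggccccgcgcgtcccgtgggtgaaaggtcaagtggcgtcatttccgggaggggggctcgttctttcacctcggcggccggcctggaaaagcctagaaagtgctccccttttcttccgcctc
Dnajb6: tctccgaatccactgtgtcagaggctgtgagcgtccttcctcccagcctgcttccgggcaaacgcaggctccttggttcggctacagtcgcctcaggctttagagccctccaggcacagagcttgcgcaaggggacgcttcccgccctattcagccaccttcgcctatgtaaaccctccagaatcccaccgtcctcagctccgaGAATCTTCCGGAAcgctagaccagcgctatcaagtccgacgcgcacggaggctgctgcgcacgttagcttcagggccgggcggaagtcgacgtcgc

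Among the cytosolic Hsp70 and Hsp110 genes, 4 of 7 read higher in the knockouts and 0 passed. Hspa1a, the classical stress-inducible Hsp70, read -0.167, -0.154, 0.0830 and 0.0063 in wild-type livers 1 to 4 and 0.0076, -0.0668 and 0.0381 in knockout livers 2 to 4. All knockout values lay inside the wild-type range. The difference was 0.0508 ± 0.0644 (SE), or 1.12-fold (95% interval 0.795 to 1.59), and did not pass (limma, adjusted p = 0.882). It was 0.0145 without wild-type liver 1, 0.0188 without wild-type liver 2, 0.0977 without wild-type liver 3 and 0.0068 with array weights. The coding sequences of Hspa1a and Hspa1b are near identical, so a probe for the first can also read the second.

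Hsp90aa1, the stress-inducible cytosolic Hsp90, read -0.0362, -0.188, 0.0092 and -0.259 in wild-type livers 1 to 4 and -0.265, -0.105 and 0.179 in knockout livers 2 to 4. Knockout livers 2 and 4 were thus the lowest and the highest of all 7, and the range was 2.78-fold. The difference of 0.0544 ± 0.108 (SE) had a 95% interval of 0.634-fold to 2.03-fold, which leaves both directions possible (limma, adjusted p = 0.919). It was 0.155 without knockout liver 2 and -0.0670 without knockout liver 4. Hsph1, an Hsp110 that exchanges nucleotide on Hsp70, read 0.0216, -0.133, -0.0533 and -0.102 in the wild types and -0.171, -0.202 and 0.121 in the knockouts. Here too the knockouts held both ends of the range. The difference was -0.0175 ± 0.0787 (SE; limma, adjusted p = 0.967), and it turned to 0.0415 without knockout liver 3 and to 0.0260 without knockout liver 2. Its relative Hspa4l read -0.0242, -0.0406, 0.0355 and -0.0954 in the wild types and -0.235, -0.0850 and 0.142 in the knockouts. Its difference was -0.0282, -0.129 without knockout liver 4 and 0.0597 without knockout liver 2. Hspa4, the constitutive Hsp110, was far steadier, between -0.0182 and 0.0933, with knockout values of 0.0345, 0.0419 and 0.0401. The other Hsp70 genes measured were Hspa2 and Hspa1l, both known from testis, and Hspa14, which works on the ribosome. Their differences were 0.0278, 0.0326 and -0.0479. Hspa12a and Hspa12b, distant relatives of Hsp70, differed by -0.0003 and 0.0239.

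The small heat shock genes read higher in the knockouts in 5 of 6 cases (4 of 6 after scaling to equal spread or quantile normalization), and 0 passed. Hspb1, the Hsp25 of mouse, read -0.0820, -0.122, 0.123 and -0.268 in the wild types and -0.0977, -0.160 and 0.205 in the knockouts. Wild-type liver 3 and knockout liver 4 stood high, and the other 5 livers stood below the pool. Its range of 2.97-fold was the widest of all members. The 2 probes of Hspb1 gave the same order of arrays, with differences of 0.0667 and 0.0732. The averaged difference was 0.0699 ± 0.110 (SE; limma, adjusted p = 0.901) and became -0.0413 without knockout liver 4. Hspb8, which works with Bag3 in the clearance of damaged proteins, read -0.0081, 0.0918, 0.0187 and -0.150 in the wild types and 0.0659, 0.0166 and 0.0136 in the knockouts. The wild types spanned the knockouts. Hspb7, a small heat shock gene of heart and muscle, was the 1 of the group without overlap: -0.0043, -0.0084, 0.0190 and 0.0088 in the wild types, and 0.0551, 0.0216 and 0.0207 in the knockouts. The gap between the groups was small, and the difference of 0.0287 ± 0.0177 (SE) did not pass (limma, adjusted p = 0.872). Hspb2, another muscle gene, differed by 0.0429, and Hspb3 by -0.0188. Hspb6 differed by 0.0048, a sign that turned under scaling to equal spread (-0.0037) and quantile normalization (-0.0027). Among markers of skeletal muscle, Acta1 differed by 0.102, Pvalb by 0.0323, Ckm by 0.0222, Tnnt3 by 0.0027 and Myl1 by 0.0018. Thus 5 of 5 measured markers read higher in the knockouts (3 of 5 after median centring), against 56.7% of all genes, and 0 passed. Other marker lists read mostly higher too: lymphocyte 5 of 5, macrophage 7 of 7, pancreas 3 of 3 and endothelial 7 of 8. So did stellate with 6 of 7, hepatocyte 7 of 9, smooth muscle 4 of 5 and adipocyte 2 of 3. Erythroid markers split 2 and 2. The median of the skeletal muscle list was highest on knockout liver 2, at 0.0614. So were those of the endothelial list, at 0.0731, and of all genes, at 0.0143. Whether muscle RNA had a part in the muscle members was not tested.

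**Figure D2:**
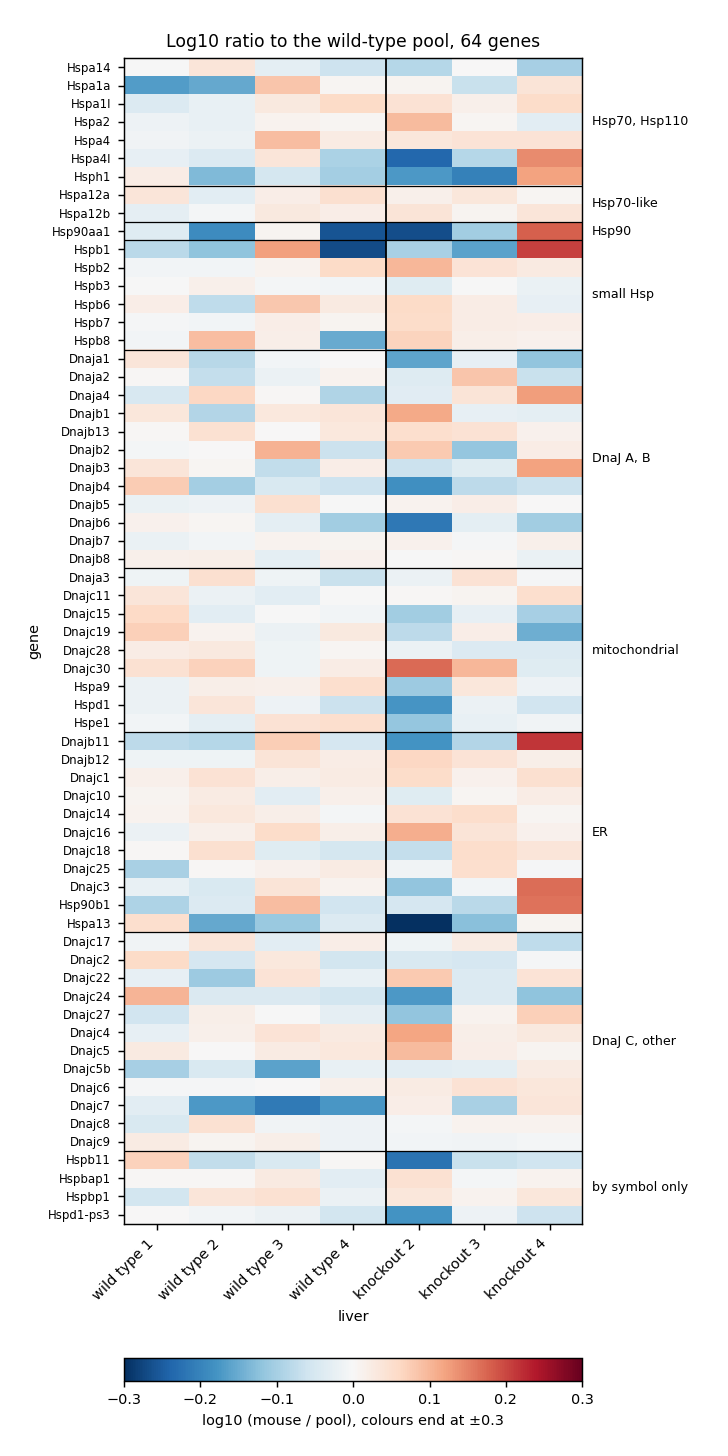
Log10 ratio to the pool of the 64 genes (rows, by role) on the 7 arrays (columns), from blue for below the pool to red for above it. Knockout liver 2 carries many of the strongest colours in both directions, being the lowest array for 19 genes and the highest for 14.

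The cytosolic DnaJ genes of classes A and B read higher in the knockouts in 7 of 12 cases, or 6 of 12 after scaling to equal spread, and 0 passed. Dnajb1, the main inducible partner of Hsp70, read 0.0335, -0.0885, 0.0315 and 0.0373 in the wild types and 0.113, -0.0245 and -0.0285 in the knockouts. Only wild-type liver 2 lay below the knockouts, and the difference of 0.0166 ± 0.0458 (SE) was -0.0300 without knockout liver 2 and -0.0030 after scaling to equal spread. Dnaja1, another partner of cytosolic Hsp70, read 0.0352, -0.0835, -0.0072 and 0.0008 in the wild types and -0.159, -0.0256 and -0.118 in the knockouts. Knockout livers 2 and 4 lay below every wild type, while knockout liver 3 lay within them. The difference of -0.0872 ± 0.0390 (SE) corresponds to 0.818-fold, with a 95% interval from 0.663 to 1.01 (limma, unadjusted p = 0.0578, adjusted p = 0.872). Its 2 probes differed by -0.137 and -0.0376. Dnajb6, which keeps proteins from aggregating, and Dnajb4, a relative of Dnajb1, differed by -0.0874 and -0.0759. Dnajb6 was lowest on knockout liver 2, at -0.215. Dnaja4 had the largest difference upward in the group, 0.0609, and the other 7 genes lay between -0.0137 and 0.0157.

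Mitochondrial members read lower in the knockouts in 6 of 9 cases, with a median difference of -0.0466 and 0 past the test. The count was 6 of 9 without each knockout in turn, and the median was -0.0222 without knockout liver 2 and -0.0780 without knockout liver 3. Hspd1 and Hspe1 encode Hsp60 and Hsp10, which form the folding chamber of the matrix. Hspd1 read -0.0186, 0.0363, -0.0143 and -0.0633 in the wild types and -0.176, -0.0174 and -0.0570 in the knockouts. Only knockout liver 2 lay below the wild types. The difference was -0.0684 ± 0.0407 (SE; limma, adjusted p = 0.872) with all mice and -0.0222 without knockout liver 2. Hspe1 read -0.0088, -0.0295, 0.0438 and 0.0505 in the wild types and -0.117, -0.0220 and -0.0111 in the knockouts. The pattern was alike, and the difference went from -0.0640 to -0.0306 without knockout liver 2. Hspa9, the matrix Hsp70, differed by -0.0466, and by -0.0069 without knockout liver 2. Thus these values of the folding chamber and the matrix Hsp70 rest largely on 1 liver. The pseudogene probe Hspd1-ps3 followed the Hspd1 probes, reading -0.179 on knockout liver 2, and as a near-identical copy it cannot be told apart from Hspd1.

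The DnaJ genes of the import motor differed by like amounts with and without that liver. With array weights they differed by less, Dnajc15 by -0.0525 and Dnajc19 by -0.0413. Dnajc15 and Dnajc19 encode DnaJ proteins of the inner membrane, which drive Hsp70 as it pulls proteins into the matrix. Dnajc15 read 0.0607, -0.0324, -0.0017 and -0.0093 in the wild types and -0.105, -0.0237 and -0.1003 in the knockouts. Knockout livers 2 and 4 were below every wild type. Its difference of -0.0806 ± 0.0301 (SE), or 0.831-fold with a 95% interval from 0.707 to 0.976, had an unadjusted p of 0.0297 and did not pass (limma, adjusted p = 0.872). It was -0.0663 without knockout liver 2 and -0.0686 without knockout liver 4. Dnajc19 read 0.0720, 0.0106, -0.0186 and 0.0286 in the wild types and -0.0789, 0.0200 and -0.146 in the knockouts. Knockout liver 3 again lay among the wild types, and the difference was -0.0914, -0.0861 without knockout liver 2 and -0.0526 without knockout liver 4. Dnajc28, a mitochondrial DnaJ protein of little known function, was the 1 member without overlap downward. It read 0.0226, 0.0298, -0.0122 and 0.0049 in the wild types and -0.0179, -0.0414 and -0.0418 in the knockouts, a difference of -0.0450 ± 0.0181 (SE; limma, unadjusted p = 0.0400, adjusted p = 0.872). Dnaja3, the DnaJ partner of Hspa9, differed by 0.0188, Dnajc11 by 0.0241 and Dnajc30 by 0.0469.

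Endoplasmic reticulum members read higher in the knockouts in 9 of 11 cases, with a median difference of 0.0179 and 0 past the test. Without knockout liver 4 the count was 5 of 11, with a median of -0.0003, and without knockout liver 2 it was 11 of 11. Several of them answer to endoplasmic reticulum stress through an element of CCAAT and, after any 9 bases, CCACG, which lay in the windows of 2 members, Dnajc3 and Hsp90b1 (3.85% of 52), and of 0.168% of measured genes. The windows are shown with the element in capitals on either strand, for Hsp90b1 (chr10:86705395-86705694, minus strand) and Dnajc3 (chr14:118937682-118937981, plus strand).
Hsp90b1: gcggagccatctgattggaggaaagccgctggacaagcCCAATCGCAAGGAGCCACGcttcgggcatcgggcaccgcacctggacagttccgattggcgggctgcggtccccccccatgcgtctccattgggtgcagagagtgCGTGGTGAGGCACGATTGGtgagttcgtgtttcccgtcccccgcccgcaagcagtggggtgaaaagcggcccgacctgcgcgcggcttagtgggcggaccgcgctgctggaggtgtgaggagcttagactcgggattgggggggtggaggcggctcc
Dnajc3: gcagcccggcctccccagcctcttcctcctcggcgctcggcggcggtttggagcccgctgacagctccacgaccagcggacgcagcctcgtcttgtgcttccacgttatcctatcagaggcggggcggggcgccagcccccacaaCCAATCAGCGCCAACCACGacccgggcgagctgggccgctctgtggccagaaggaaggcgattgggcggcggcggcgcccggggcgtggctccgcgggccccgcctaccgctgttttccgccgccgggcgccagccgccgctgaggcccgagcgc

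Hsp90b1, the Hsp90 of this organelle, read -0.0933, -0.0419, 0.0921 and -0.0565 in the wild types and -0.0498, -0.0802 and 0.162 in the knockouts. Wild-type liver 3 and knockout liver 4 were the only livers above the pool. The difference of 0.0355 was -0.0401 without knockout liver 4. Dnajb11, a DnaJ partner of the organelle's main Hsp70, read -0.0788, -0.0855, 0.0739 and -0.0500 in the wild types and -0.180, -0.0872 and 0.215 in the knockouts. The same livers were high, the range was 2.49-fold, and the difference of 0.0176 ± 0.0901 (SE; limma, adjusted p = 0.968) was -0.0987 without knockout liver 4 and 0.0990 without knockout liver 2. Dnajc3, a DnaJ protein that also restrains the kinase PERK, read -0.0229, -0.0461, 0.0394 and 0.0103 in the wild types and -0.118, -0.0091 and 0.167 in the knockouts. Its difference of 0.0179 was -0.0589 without knockout liver 4. Dnajc10, a reductase of misfolded proteins, stayed between -0.0373 and 0.0257. Hspa13, an Hsp70-like gene of microsomes, read 0.0508, -0.153, -0.111 and -0.0417 in the wild types and -0.372, -0.125 and 0.0086 in the knockouts. Its lowest value was knockout liver 2, and the difference of -0.0994 ± 0.0885 (SE; limma, adjusted p = 0.872) was 0.0053 without it and -0.185 without knockout liver 4. Dnajb12, a membrane DnaJ protein, differed by 0.0310 ± 0.0210 (SE), and the remaining 5 genes by 0.0140 to 0.0364.

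**Figure D3:**
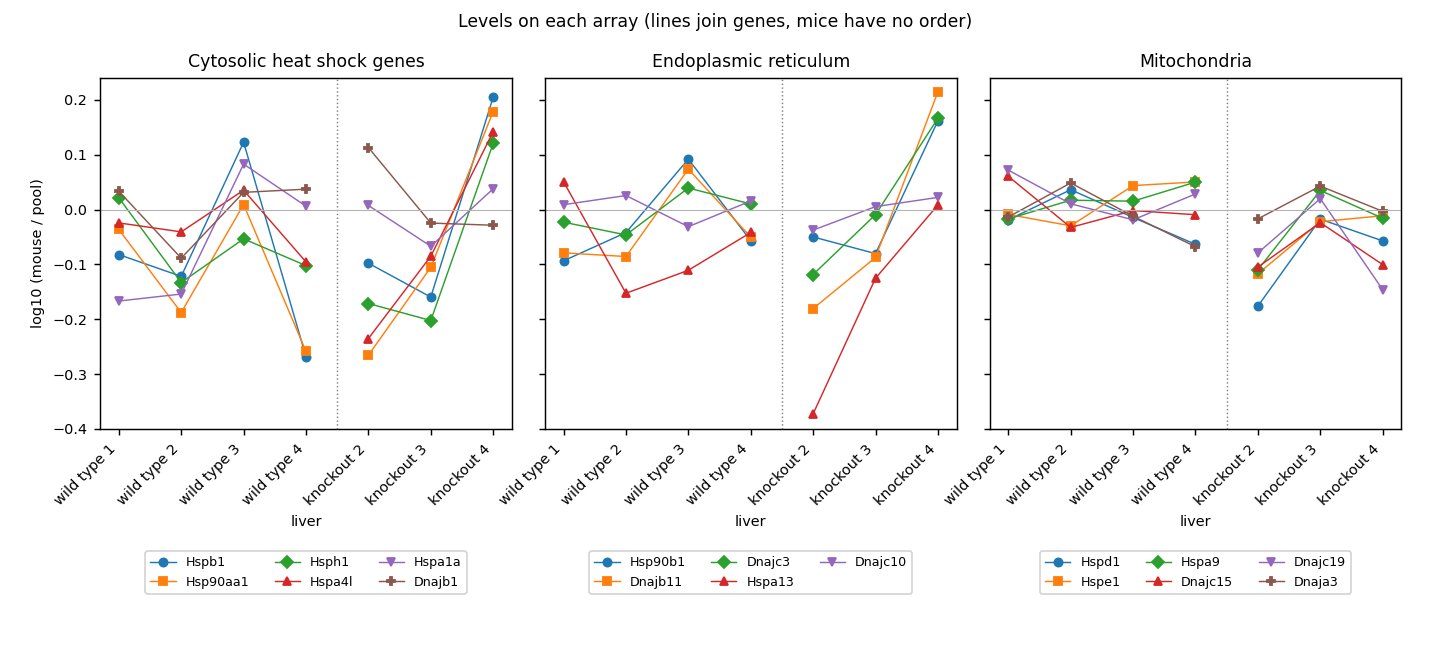
Log10 ratio to the pool on each of the 7 arrays for 6 cytosolic heat shock genes, 5 genes of the endoplasmic reticulum and 6 of the mitochondria; lines join the values of a gene and the mice have no order. Hspb1, Hsp90aa1, Hsp90b1, Dnajb11 and Dnajc3 are highest on knockout liver 4 and next on wild-type liver 3, while the mitochondrial genes lack that peak.

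Some members of the cytosol and of the endoplasmic reticulum shared an order of livers, and most did not. In 6 members, knockout liver 4 was the highest array and wild-type liver 3 the next: Dnajb11, Dnajc3, Hsp90aa1, Hsp90b1, Hspa4l and Hspb1. This order was chosen after the values were seen. It held in 9.38% of members and 2.68% of all genes. Knockout liver 4 lay above every wild type in 18 members (28.1%, against 20.3% of all genes), and knockout liver 2 lay below every wild type in 23 (35.9%, against 22.6%). In the opposite directions members were fewer than all genes. Knockout liver 4 lay below every wild type in 17.2% (20.5% of all genes), and knockout liver 2 above in 28.1% (33.6%). Knockout liver 3 lay above every wild type in 12.5% of members (12.7% of all genes) and below in 7.81% (13.1%). These counts were made without scaling to equal spread, which lowered the members lowest on knockout liver 2 from 19 to 9. Scaling raised the members highest on knockout liver 4 from 14 to 17. The shares of all genes after scaling are not given here. In 7 members, Dnaja1, Dnajc15, Dnajc19, Dnajc24, Hspa14, Hspb3 and Hspd1-ps3, knockout livers 2 and 4 lay below every wild type and knockout liver 3 did not (10.9%, against 4.51% of all genes, also unscaled). This pattern too was chosen after the values were seen. Hspd1-ps3 cannot be told apart from Hspd1, which lay outside this pattern, at -0.0570 on knockout liver 4 and -0.0633 on wild-type liver 4. Leaving out knockout liver 3 removes the array that set these 7 apart, so the count that follows is no separate evidence. Without it, limma listed 9 members at an unadjusted p under 0.05 (14.1%, against 7.06% of genes), 8 of them lower (12.5%, against 3.95% of genes), and 0 passed, with a smallest adjusted p of 0.568. With each of the other 6 mice left out, it listed 1 to 4 of the 64 members, and 3.03% to 5.03% of all genes.

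Most listed genes that share the endoplasmic reticulum stress response but lie outside the rule showed the high reading on knockout liver 4 as well. Of 15 measured, 10 were highest on knockout liver 4 and 8 lowest on knockout liver 2, with list medians of 0.109 and -0.169 there. Over all genes, 14.4% were highest on knockout liver 4 and 18.6% lowest on knockout liver 2, all counted without scaling to equal spread. Between genotypes 9 of the 15 read higher, 6 lower and 0 passed, and without knockout liver 4 the split was 3 higher and 12 lower. Sdf2l1, a partner of Dnajb11, read 0.283 on knockout liver 4, 0.1001 on wild-type liver 3 and -0.139 or lower on the other 5. Hspa5, the organelle's main Hsp70, differed by 0.0011 ± 0.0519 (SE; limma, adjusted p = 0.997), and was highest on knockout liver 4, at 0.115. Dnajb9, a partner of Hspa5, read 0.130, -0.0382, -0.155 and 0.0844 in the wild types and -0.236, -0.0496 and -0.203 in the knockouts, a difference of -0.168 ± 0.0746 (SE; limma, adjusted p = 0.872). Unlike the genes highest on knockout liver 4, Dnajb9 was low there. Other listed genes also lacked a high reading there: Hyou1 read -0.0263, Herpud1 -0.0038 and Edem1 -0.0175, its lowest value. Ddit3 read 0.1055 there, just below its 0.1093 on knockout liver 2. Macrophage markers moved with knockout liver 4 too: 6 of 7 were highest on that liver's array, Marco at 0.372 and Adgre1 at 0.118, while the list median lay between -0.341 and -0.0722 in the wild types. On wild-type liver 3, where the 6 chaperones were second highest, 5 of 7 of these markers were lowest (11.3% of all genes were). All 7 macrophage markers read higher in the knockouts on average (6 of 7 after median centring, 4 of 7 without knockout liver 4) and 0 passed. The part of macrophages in the chaperone values was not tested.

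The other DnaJ genes of class C read higher in the knockouts in 8 of 12 cases and held the largest difference of all members. Dnajc7, a co-chaperone that binds both Hsp70 and Hsp90, read -0.0315, -0.171, -0.212 and -0.176 in the wild types and 0.0193, -0.0972 and 0.0371 in the knockouts. Knockout livers 2 and 4 were above every wild type, and knockout liver 3 was below wild-type liver 1. The difference of 0.134 ± 0.0501 (SE) corresponds to 1.36-fold with a 95% interval from 1.04 to 1.78, or 1.10-fold if the logarithm is of base 2 (limma, unadjusted p = 0.0297, adjusted p = 0.872). It lay between 0.109 and 0.176 when each knockout was left out, and was 0.0789 with array weights. Dnajc6, the auxilin that uncoats clathrin vesicles, had no overlap, at -0.0024, -0.0042, 0.0021 and 0.0152 in the wild types and 0.0243, 0.0444 and 0.0342 in the knockouts. The difference of 0.0316 ± 0.0159 (SE) did not pass (limma, adjusted p = 0.872). Dnajc5b, of the cysteine string protein family, read -0.1002, -0.0448, -0.161 and -0.0217 in the wild types and -0.0324, -0.0295 and 0.0245 in the knockouts, where wild-type liver 4 overlapped the knockouts. Dnajc24, which takes part in making diphthamide on elongation factor 2, read 0.101, -0.0432, -0.0443 and -0.0545 in the wild types and -0.171, -0.0401 and -0.121 in the knockouts. Wild-type liver 1 stood apart from its group, and the difference was -0.1004 ± 0.0467 (SE; limma, adjusted p = 0.872). The other 8 genes differed by -0.0291 to 0.0545.

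**Figure D4:**
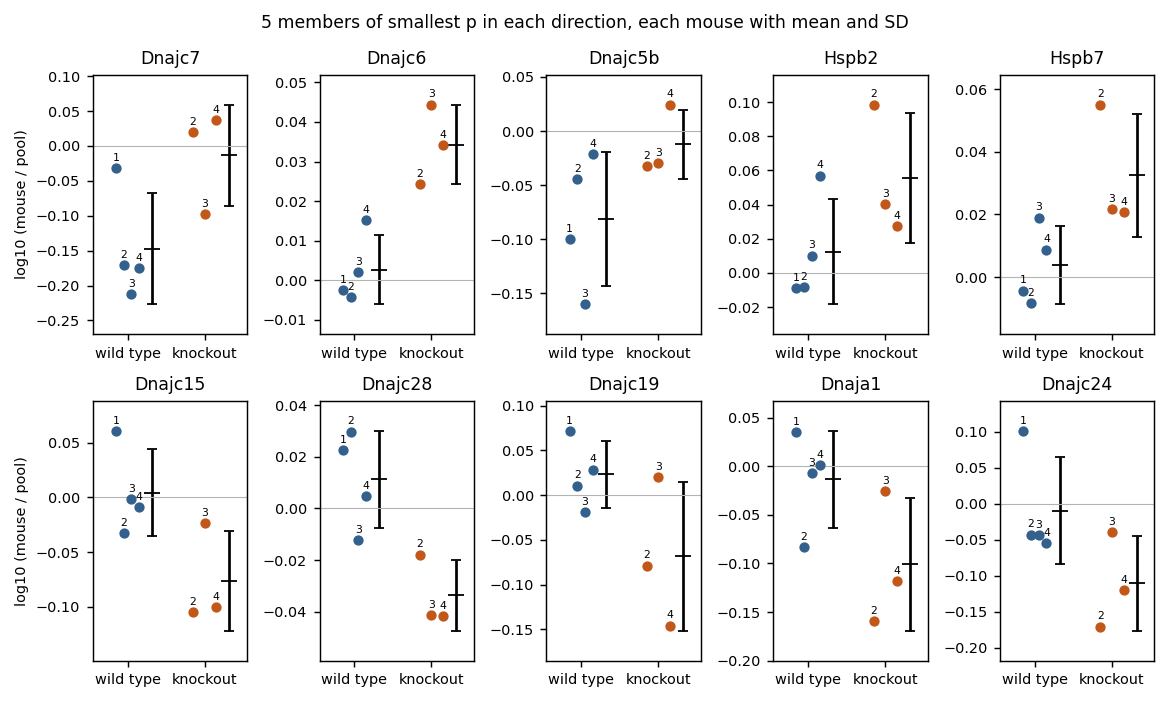
Log10 ratio to the pool for each numbered mouse (dots), with the group mean and SD (bars), in the 5 members of smallest unadjusted p higher in the knockouts (top) and lower (bottom). Of the 64 members, Dnajc6, Hspb7 and Dnajc28 alone have groups that do not overlap, and 0 passed after adjustment.

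The symbol rule also took in genes that are not chaperones of these families. Hspb11 encodes a protein of intraflagellar transport, and it read 0.0682, -0.0738, -0.0449 and 0.0035 in the wild types and -0.221, -0.0679 and -0.0589 in the knockouts. Its difference, -0.104 ± 0.0489 (SE), was the largest downward (limma, adjusted p = 0.872), and -0.0517 without knockout liver 2. Hspbp1, an exchange factor of Hsp70, differed by 0.0240, and Hspbap1, a binding partner of Hspb1, by 0.0163.

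Partners of the members were read from a list of heat shock factors and co-chaperones, of which 35 of 37 were measured. Knockouts read higher in 21 and lower in 14, and 0 passed. At an unadjusted p under 0.05, limma listed 1 higher and 1 lower, 2.02% and 2.76% of all genes being listed in these directions. Hsbp1, a small protein that binds heat shock factor 1, read 0.0231, 0.0171, 0.0109 and -0.0221 in the wild types and -0.0295, -0.0849 and -0.0737 in the knockouts. The groups did not overlap, at a difference of -0.0699 ± 0.0211 (SE; limma, unadjusted p = 0.0116, adjusted p = 0.872). Grpel2, a nucleotide exchange factor of mitochondrial Hsp70, differed by 0.0749 ± 0.0261 (SE; limma, adjusted p = 0.872). Stip1, which links Hsp70 to Hsp90, differed by 0.0499 and Bag3, the partner of Hspb8, by -0.0216.

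The spread among wild-type mice does not use the genotype contrast. Of the 64 members, 7 (10.9%) were among the 10% of genes with the largest SD over the 4 wild types, and 22 (34.4%) among the top 25%. The 7 were Hspb1, Hsp90aa1, Hspa1a, Hspb8, Hspa13, Hsp90b1 and Dnajc7. Of the 8 measured heat-inducible members (Hspa1a, Hsp90aa1, Hsph1, Hspb1, Dnajb1, Dnaja1, Hspd1 and Hspe1), 3 were in the top 10% and 5 in the top 25%. Hspb1 stood at the 98.9th percentile, Hsp90aa1 at the 97.5th and Hspa1a at the 97.3rd. Between the lowest and highest wild type, Hspb1 spanned 2.46-fold, Hsp90aa1 1.85-fold and Hspa1a 1.78-fold. Of the 9 mitochondrial genes, 0 were in the top 25%, while their median percentile was 58.1. Over all 7 mice, the median range was 0.152 for members and 0.105 for all genes. Between genotypes, 4 of the 8 heat-inducible genes read higher in the knockouts and 4 lower, with a median difference of -0.0004 and 0 passed. The split was 2 higher and 6 lower without knockout liver 4 (median -0.0728) and with array weights (median -0.0218), and 5 and 3 without knockout liver 3 (median 0.0402).

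**Figure D5:**
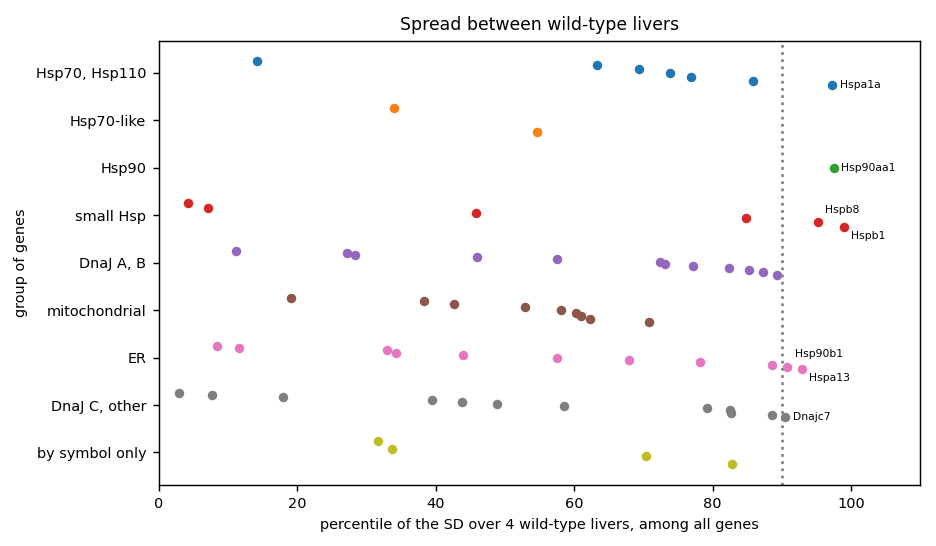
Percentile of each of the 64 genes' SD over the 4 wild-type livers among all 16462 genes (horizontal axis), by role (rows), with the top 10% of genes to the right of the dotted line. The 7 named genes lie right of it, Hspb1 furthest at 98.9, and the 9 mitochondrial genes reach at most 70.8.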

How the data were processed

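The authors deposited 1 log10 ratio per probe and array. Base 10 is an assumption, as no source used here names the base. Per the labels, RNA was purified on spin columns, amplified and labelled, with Cy3 for channel 1 and Cy5 for channel 2 on all samples, and the series' design text states a dye swap. Scanner software, background correction, normalization and the probes' genome build are not given in the sources used here, and signal over background is thus unknown.

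Symbols came from the platform annotation. They were updated with the GRCm38.p6 gene table by Entrez number (17724 probes) or accession (21 probes), and 79 stayed as annotated. In all 17824 probes had 1 symbol, 50 several and 5700 no listed gene. Probes of a gene were averaged. All 16462 genes were fitted with limma 3.58.1 in R 4.3.3, using lmFit and eBayes with no trend, as the two-sided contrast of knockout against wild type. P-values were adjusted by Benjamini-Hochberg over all genes, at a threshold of 0.05. Errors are the SE of that fit or the SD over mice, which the labels describe as separate animals. A simulation checked the fit, with 50 genes altered per size. Of these, the fit called 10% at a log10 change of 0.1, 76% at 0.2, 96% at 0.4 and 100% at 0.8. False calls numbered 9. These rates describe the simulated data and set no detection limit for the members. In the real data the SD over probes ran from 0.0466 to 0.0975 between arrays. The median SE was 0.0333 over members, larger than the 0.0269 over all genes.

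Genes were named by a rule: 20 fixed genes, of which 17 were measured, the 6 of smallest p in each direction, the 6 of widest range, members within 20 Mb of C3ar1 (0 found), members with 2 discordant probes (0 found), Hspa5 and Dnajb9, and up to 4 of smallest p per accompanying list. Other members with values in the text, and Sdf2l1, Bag3, Fkbp5, Marco, Adgre1, Acta1 and Ckm, were named after their values were seen. So were Hyou1, Herpud1, Edem1, Ddit3, Pvalb, Tnnt3 and Myl1. Members, groups and lists were chosen with earlier results of these data known. Alternatives were 3 normalizations, a filter on variation, single probes, a robust fit, array weights, a replicate block, an ordinary test, other names or members, and each mouse left out. Promoter windows came from RefSeq.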

Additional observations from a re-analysis of the deposited data

Results flagged for a closer look

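Among the 30 members named by the rule, the highest or lowest of the 4 wild-type livers stood far from the other 3 in 2 cases. Dnajb1 read -0.0885 in wild-type liver 2, and its gap to the nearest other liver was 0.954 of the whole wild-type range. Dnajc24 read 0.101 in wild-type liver 1, with a gap of 0.927 of the range. Both exceed the 95% critical value of Dixon's test for 4 samples. Chance alone marks about 1 in 20 groups in this way, and over all 64 members 3 were marked (4.69%), against 4.95% of all genes. The knockouts, at 3 mice, were too few for this test.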

How the results depend on the processing

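Over 17 alternative fits and 3 changes of the member list, 0 members passed in each, and the smallest adjusted p among the named members was 0.568. The 30 named members had 508 alternative values, of which 479 kept their direction and 29 turned. Genes called over the whole table numbered 1 as reported, 0 under scaling to equal spread, the ordinary test and the replicate block, 3 in the more variable genes (8231), and 0 to 3 when each mouse was left out. Members without overlap were 3 as reported, 1 under quantile normalization, 1 under scaling and 0 of those kept in the more variable genes. The shares of all genes under quantile normalization and scaling are not given here. When each mouse was left out, the count was 3 to 14. It was 14 with knockout liver 3 left out (21.9%, against 15.2% of all genes) and 9 with wild-type liver 2 (14.1% against 9.30%). It was 8 with knockout liver 4 left out (12.5% against 12.8%) and 3 with knockout liver 2 (4.69% against 10.2%). Members also lay below the share of all genes without wild-type liver 3 or 4, and slightly above it without wild-type liver 1. Fewer mice give less overlap in all genes. Members higher in the knockouts were 40, 34 with knockout liver 4 left out, 36 with array weights, and 26 of 44 kept in the more variable genes. Their median difference of 0.0145 was 0.0033 with array weights and 0.0065 to 0.0167 when each mouse was left out. Same-numbered mice had correlations of deviations of -0.135, -0.209 and -0.129, and pairs with unlike numbers had -0.285 to 0.3. Such correlations cannot settle whether the numbers pair the samples. With the replicate block the members' median difference was 0.0084 and 39 members were higher, the same as without wild-type liver 1. That mouse has no knockout of the same number, so the block leaves it out of the difference. The block's differences are thus no separate check. Signs turned with array weights for Dnajb1 (-0.0254), Dnajb11 (-0.0164), Dnajc10 (0.0012), Hsp90b1 (-0.0137), Hspb1 (-0.0097) and Hspb6 (-0.0047), with scaling for Dnajb1 (-0.0030), Hspa4l (0.0040) and Hspb6 (-0.0037), with quantile normalization for Hspb6 (-0.0027) and Hsph1 (0.0065), and with the block for Hsph1 (0.0119). The turn of Hsph1 with the block is that of leaving out wild-type liver 1, and the cause of the other turns was not tested. When each mouse was left out, values that turned ranged from -0.0001 to 0.0387 for Dnaja3, -0.0300 to 0.0409 for Dnajb1, -0.0987 to 0.0990 for Dnajb11, -0.0208 to 0.0091 for Dnajc10, -0.0589 to 0.0836 for Dnajc3, -0.0670 to 0.155 for Hsp90aa1, -0.0401 to 0.0809 for Hsp90b1, -0.185 to 0.0053 for Hspa13, -0.129 to 0.0597 for Hspa4l, -0.0413 to 0.141 for Hspb1, -0.0249 to 0.0277 for Hspb6, -0.0021 to 0.0785 for Hspb8 and -0.120 to 0.0415 for Hsph1. Signal over background was not analysed here, and 7 arrays limit the differences that can be seen.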

Other observations

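Other folding machines of the cytosol gave no call. Of 12 measured subunits of the chaperonin TRiC and of prefoldin, which fold actin and tubulin, 6 read higher in the knockouts, 6 lower and 0 passed, with a median difference of -0.0025. Without knockout liver 2, 9 of 12 read higher, and after median centring 5 did. Tcp1, a TRiC subunit, differed by 0.0289 ± 0.0207 (SE), and Vbp1, a prefoldin subunit, by -0.118 ± 0.0927 (SE; limma, adjusted p = 0.872 for both). Vbp1 read -0.393 on knockout liver 2, while knockout livers 3 and 4 lay within its wild-type range.

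Cirbp and Rbm3, RNA-binding genes that answer to lower body temperature, differed by 0.0086 and -0.0591 and did not pass. Rbm3 read -0.0187, 0.113, -0.0418 and -0.0386 in wild-type livers 1 to 4 and -0.0842, 0.115 and -0.198 in knockout livers 2 to 4, so wild-type liver 2 and knockout liver 3 were high. Fkbp5, a co-chaperone of Hsp90 that glucocorticoids induce, read 0.129, 0.221, -0.202 and -0.120 in the wild types and 0.226, 0.327 and -0.168 in the knockouts. Its lowest livers were wild-type livers 3 and 4 and knockout liver 4, the range was 3.38-fold, and its SD over the wild types stood at the 99.4th percentile of all genes.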
